A study of Mus musculus with 8 samples.

Results

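The RNA of 10 genes of vasoactive mediators, Nos2, Nos3, Gch1, Edn1, Ednrb, Ece1, Ace, Ptgs1, Ptgs2 and Ptgis, was measured in endothelial cells of mouse tumors treated with an agonistic CD40 mAb. They were chosen by symbol for their roles in nitric oxide, endothelin and prostanoid signaling. All 10 were found among the 20057 genes of the table, and all 10 were among the 12969 genes tested, whose larger group mean was above 10 normalized reads. The cells came from B16-F10 melanoma, a mouse melanoma line, of which 250000 cells were implanted subcutaneously in male C57BL/6 mice aged 8 weeks. One group of 4 tumors received 2 peritumoral injections of 30 µg of the agonistic CD40 antibody FGK4.5, on days 13 and 16. The other group of 4 tumors received the same dose of the rat IgG2a antibody 2A3 on the same days and is called the isotype group. None of the mice carried an engineered allele. About 100000 live CD45- CD31+ cells were sorted from each tumor, by the labels 1 day after the last injection, although the methods of the study also name a later day, so that the sort day of a single library is not certain. Libraries are named by the mouse: 5N, 6L, 6R and 10N for anti-CD40, and 5L, 7N, 8N and 9L for isotype. The comparison asks how stimulating CD40 in the tumor changes the RNA of its endothelial cells.

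Nitric oxide synthases make nitric oxide from arginine, which relaxes vascular smooth muscle through guanylate cyclase, and they need the cofactor tetrahydrobiopterin. Endothelin-1 is a constrictor peptide cut from its precursor by an endothelin converting enzyme, and on endothelial cells it acts through the B receptor, which promotes nitric oxide and prostacyclin release. Cyclooxygenases turn arachidonic acid into the prostanoid precursor from which prostacyclin synthase makes the vasodilator prostacyclin.

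The libraries differed widely in depth, and the sorted cells carried RNA of other cell types. Reads on genes ranged from 2971689 in 5L to 64938728 in 5N, and 3 of the 4 isotype libraries were the shallowest of the 8. Summed normalized reads of 10 endothelial markers were 46278 to 66638 in the anti-CD40 libraries and 41823 to 56017 in the isotype libraries. The sum over 6 fibroblast markers was 88497 to 249098 (sums of reads, not per length), and 8 melanoma markers summed to 37375 to 98416, with the highest value in 5L. Sums of 8 mural cell markers ran from 11826 in 5L to 39003 in 7N. The sums of 8 macrophage markers overlapped between the groups, at 312 to 511 after anti-CD40 and 200 to 466 after isotype, and Mrc1 was the 1 macrophage marker of the 8 higher at the threshold described next. Ptprc, which encodes the CD45 used to exclude leukocytes, was at 0 to 21.1 normalized reads. The 5 leukocyte markers, Ptprc among them, summed to 73.3 in 5L to 198 in 9L. Sums of 6 neutrophil markers ran from 2.72 in 8N to 52.3 in 6R, with Ly6g at 0 in all 8 libraries. Those of 8 T and natural killer cell markers ran from 0 in 5L to 7.80 in 9L, with Cd3d and Ifng at 0 in all 8. Sums of 9 platelet markers ran from 100 in 5L to 1230 in 6L. No marker sum differed between the groups by an exact permutation test, with p of at least 0.286. In such bulk samples fewer cells of a type and less RNA per cell cannot be told apart.

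Nos2, which encodes the inducible nitric oxide synthase, was the only one of the 10 genes to pass the study's threshold, which asks for group means 1.5-fold apart and an unadjusted p no larger than 0.05. It was at 863 normalized reads in 5N, 1211 in 6L, 787 in 6R and 836 in 10N after anti-CD40. The isotype libraries held 384 in 5L, 590 in 7N, 667 in 8N and 647 in 9L. All 4 anti-CD40 libraries were thus above the highest isotype library, and the lowest value of all was that of 5L. The means were 924 ± 194 (SD, n = 4) and 572 ± 130 (SD, n = 4), and their ratio was 1.62. On the log2(normalized reads + 1) scale the difference was 0.70 (SE 0.20, 95% interval 0.27 to 1.14), with an unadjusted limma p of 0.00463 and an adjusted p of 0.771 over all genes tested. The exact two-sided permutation test over 70 assignments gave p = 0.0286, the smallest it can give with 4 against 4 libraries.

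Among all 12969 genes tested, 166 (1.28%) were higher at the threshold and 31 (0.239%) were lower, and 141 (1.09%) had all anti-CD40 libraries above all isotype libraries. Of the 10 vasoactive genes, 1 was higher, and 1 had non-overlapping groups in that direction, Nos2 in both cases. No share can be read from 1 call among 10 genes. None of the 10 was lower by limma, by edgeR or by DESeq2, and Nos2 was the only one with an unadjusted limma p under 0.05. The log2 fold change was above 0 in 7 of the 10 genes and in 51.3% of all genes tested. Its median was 0.14 over the 10 genes and 0.0046 over all genes tested.

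**Figure D1:**
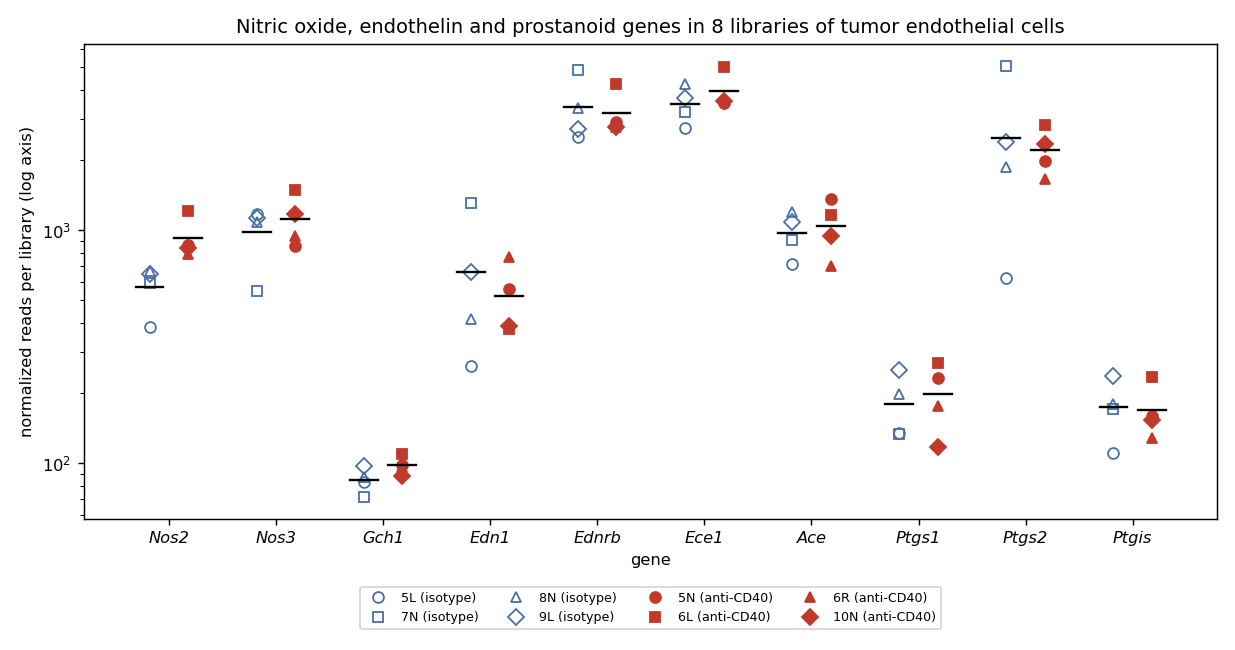
Normalized reads (log axis) of the 10 genes in each library, with isotype libraries as open symbols, anti-CD40 libraries as filled symbols and group means as black bars. Nos2 is the gene whose 4 anti-CD40 libraries, at 787 to 1211, all sit above the isotype libraries, and the isotype libraries of Ptgs2 and Edn1 spread the most.

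The Nos2 call was close to the ratio that defines it. Without 6L, the anti-CD40 library with the highest value, the ratio of means was 1.45, and without 5L, the lowest isotype library, it was 1.46, so that the direction stayed and the ratio fell just under 1.5. Leaving out 5L and 7N together, an alternative chosen after seeing the data, gave a ratio of 1.41. The isotype values rest on 157 reads in 5L, 248 in 7N, 490 in 8N and 2984 in 9L, and the anti-CD40 values on 1308 in 6R to 7325 in 5N. The 95% Poisson interval of the 5L value, which covers counting error only, was 326 to 449 normalized reads, below the 519 to 668 of 7N.

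Relative to endothelial RNA the groups stood in the same order, but the ratio was below the 1.5 of the threshold and the call was lost. Per 1000 normalized reads of the 10 endothelial markers, Nos2 was at 15.2 in 5N, 18.2 in 6L, 15.9 in 6R and 18.1 in 10N, and at 9.17 in 5L, 13.8 in 7N, 11.9 in 8N and 11.7 in 9L. The groups again did not overlap. The means were 16.8 ± 1.52 and 11.7 ± 1.90 (SD, n = 4 each), with a ratio of 1.44 and an exact permutation p of 0.0286. For the other 9 genes this ratio lay between 0.699 for Edn1 and 1.03 for Gch1, with exact permutation p of at least 0.343.

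**Figure D2:**
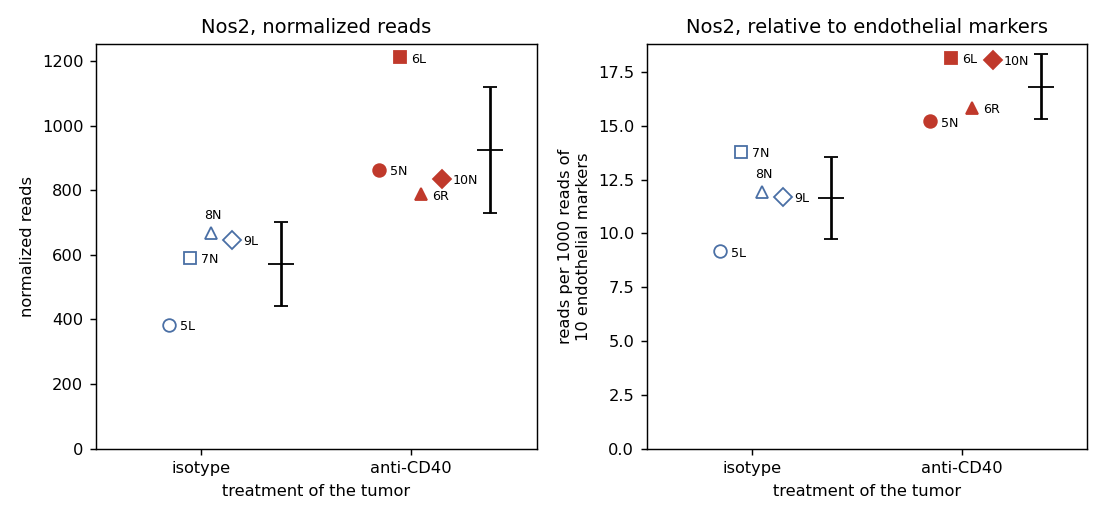
Nos2 in normalized reads (left axis) and per 1000 normalized reads of 10 endothelial markers (right axis), with 1 symbol per library and the mean ± SD (n = 4) beside each group. On both scales the anti-CD40 libraries lie above the isotype libraries, and the ratio of means goes from 1.62 to 1.44, which is under the 1.5 of the threshold.

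Macrophages can also express Nos2, and macrophage markers are therefore given beside it. Per kb of exon, the 8 macrophage markers summed to 174 to 314 normalized reads in the anti-CD40 libraries and 121 to 276 in the isotype libraries, with an exact permutation p of 0.286. Nos2 itself stood at 178 to 274 normalized reads per kb after anti-CD40 and 87.0 to 151 after isotype. Its ratio to the macrophage sum was between 0.485 in 7N and 1.24 in 8N, and it overlapped between the groups (exact permutation p = 0.486). The part of macrophage RNA in the Nos2 difference was not tested.

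Nos3, the endothelial nitric oxide synthase, was at levels that overlapped widely. It measured 857 normalized reads in 5N, 1492 in 6L, 945 in 6R and 1171 in 10N after anti-CD40. The isotype libraries held 1175 in 5L, 550 in 7N, 1079 in 8N and 1122 in 9L. The 7N value was well below the other isotype libraries, and 6L was above all others. The means were 1116 ± 283 and 982 ± 291 (SD, n = 4 each), and the log2 difference of 0.21 had a 95% interval of -0.34 to 0.77 (limma p = 0.417, exact permutation p = 0.543). A rise of the size measured for Nos2 is inside that interval. Of the exon bases of Nos3, 32.3% are overlapped by Atg9b and Gm15587 on the opposite strand, and the library kit does not keep the strand, so reads of these genes cannot be told apart there. Atg9b itself had 9.78 to 36.4 normalized reads.

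Per kb of exon the Nos2 level was 0.669 to 0.943 of the Nos3 level in the anti-CD40 libraries and 0.306 to 1.005 in the isotype libraries. The highest ratio was in 7N, where Nos3 was low, and the groups overlapped (exact permutation p = 0.257, adjusted p = 0.771 over 6 ratios).

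Gch1 encodes GTP cyclohydrolase 1, the first enzyme of tetrahydrobiopterin synthesis. Its levels were 97.9 normalized reads in 5N, 109 in 6L, 95.7 in 6R and 88.3 in 10N, against 83.1 in 5L, 71.4 in 7N, 87.1 in 8N and 97.1 in 9L. The anti-CD40 libraries were mostly the higher ones, but 9L was above both 6R and 10N. The means were 97.8 ± 8.75 and 84.7 ± 10.6 (SD, n = 4 each), and the log2 difference was 0.21 (95% interval -0.18 to 0.60, limma p = 0.26, exact permutation p = 0.114). Gch1 was the steadiest of the 10 genes, with the highest library 1.53 times the lowest, although only 30 reads in 7N and 34 reads in 5L were behind its values there. Its level per kb relative to Nos2 was 0.0760 ± 0.00939 after anti-CD40 and 0.109 ± 0.0304 after isotype (exact permutation p = 0.0571, adjusted p = 0.343 over 6 ratios).

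Edn1, the precursor of endothelin-1, varied between tumors far more than between treatments. It was at 557 normalized reads in 5N, 375 in 6L, 764 in 6R and 386 in 10N after anti-CD40. The isotype libraries were at 261 in 5L, 1304 in 7N, 414 in 8N and 658 in 9L, and so held both the lowest and the highest value. The highest library was 4.99 times the lowest, and 92.9% of the genes tested had a smaller span. The log2 difference was -0.15 with a 95% interval of -1.08 to 0.79 (limma p = 0.732, exact permutation p = 0.714), wide enough to hold a change of the size of Nos2 in either direction. It was -0.51 without 5L and 0.26 without 7N.

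Ednrb, the endothelin B receptor, was one of the most abundant of the 10 genes. Its levels were 2914, 4240, 2768 and 2776 normalized reads in 5N, 6L, 6R and 10N, and 2510, 4896, 3330 and 2723 in 5L, 7N, 8N and 9L. The highest isotype library was above all anti-CD40 libraries and the lowest was below them. The ratio of means was 0.944 and the log2 difference -0.06 (95% interval -0.54 to 0.42, limma p = 0.796, exact permutation p = 0.714). Melanocytes and melanoma cells also use this receptor. The melanoma sums overlapped between the groups, and over the 8 libraries Ednrb was lower where they were higher (r = -0.68, permutation p = 0.0619, adjusted p = 0.159, and rho = -0.79, permutation p = 0.0279, adjusted p = 0.201). This relation did not hold after adjustment over the 36 relations given further on. Without 6L and 7N, r was -0.61. Ednrb was also higher where the mural sum was higher, which did not hold after adjustment either (r = 0.69, permutation p = 0.0583, adjusted p = 0.159, and rho = 0.52, permutation p = 0.197, adjusted p = 0.472). For the mural sum, r was 0.57 without 6L and 7N.

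Ece1, which encodes the endothelin converting enzyme, was at 3526 normalized reads in 5N, 5022 in 6L, 3644 in 6R and 3572 in 10N, against 2737 in 5L, 3219 in 7N, 4251 in 8N and 3710 in 9L. The library 6L stood above the rest, and the other anti-CD40 libraries were inside the isotype range. The means were 3941 ± 722 and 3479 ± 650 (SD, n = 4 each), and the log2 difference was 0.18 (95% interval -0.19 to 0.55, limma p = 0.30, exact permutation p = 0.40). Ace, the angiotensin converting enzyme of the endothelial surface, which also degrades bradykinin, had 1361, 1167, 705 and 942 normalized reads in 5N, 6L, 6R and 10N, and 716, 909, 1192 and 1087 in 5L, 7N, 8N and 9L. The lowest and the highest library were both from the anti-CD40 group, and the log2 difference was 0.08 (95% interval -0.40 to 0.56, limma p = 0.717, exact permutation p = 0.686).

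The cyclooxygenases did not differ detectably either. Ptgs1, the constitutive form, was at 231 normalized reads in 5N, 267 in 6L, 176 in 6R and 117 in 10N, and at 134 in 5L, 133 in 7N, 199 in 8N and 251 in 9L. The lowest and the highest value were both in the anti-CD40 group, and the log2 difference was 0.13 (95% interval -0.51 to 0.76, limma p = 0.669, exact permutation p = 0.714). Ptgs2, the inducible form, had 1983, 2836, 1658 and 2342 normalized reads in 5N, 6L, 6R and 10N, and 623, 5091, 1859 and 2385 in 5L, 7N, 8N and 9L. The isotype libraries 5L and 7N lay on either side of all others, 8.17-fold apart, and 96.7% of the genes tested spanned less. The anti-CD40 libraries spanned 1.71-fold. The mean was lower after anti-CD40, with a ratio of 0.886, while the mean on the log scale was higher by 0.16 (95% interval -0.93 to 1.25, limma p = 0.755, exact permutation p = 0.8286). That difference was -0.39 without 5L and 0.62 without 7N, so no direction can be given.

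Ptgis, the prostacyclin synthase, was at 159 normalized reads in 5N, 234 in 6L, 128 in 6R and 153 in 10N, and at 110 in 5L, 171 in 7N, 178 in 8N and 236 in 9L. The groups overlapped over nearly their whole range. The log2 difference was -0.03 (95% interval -0.58 to 0.53, limma p = 0.914, exact permutation p = 0.8286). Per kb of exon, Ptgs2 was 6.80 to 8.56 times Ptgis in the anti-CD40 libraries and 3.18 to 16.7 times in the isotype libraries, again with 5L lowest and 7N highest (exact permutation p = 0.686, adjusted p = 0.943 over 6 ratios). The ratio of Ptgs2 to Ptgs1 ran from 3.93 in 5L to 32.4 in 7N and did not separate the groups (exact permutation p = 0.943).

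**Figure D3:**
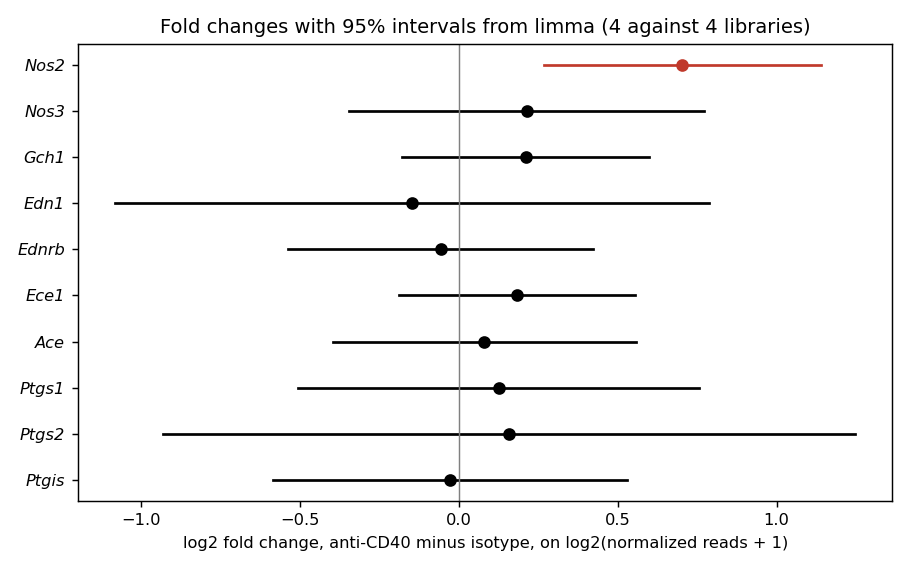
Log2 fold change of each gene, anti-CD40 minus isotype, on the log2(normalized reads + 1) scale, with the 95% interval from limma over 4 against 4 libraries. The interval of Nos2, 0.27 to 1.14, is the only one that leaves out 0, and those of Edn1 and Ptgs2 are the widest.

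The endothelin receptor and converting enzyme genes had the highest levels of the 10. Per kb of exon and averaged over the 8 libraries, Ednrb was at 766 ± 200 and Ece1 at 700 ± 129 normalized reads (SD, n = 8). Ednrb was above Ece1 in 4 of 8 libraries, so these neighbors did not differ beyond their spread. Ptgs2 followed at 513 ± 281, below Ece1 in 7 of 8 libraries. Edn1, Nos3, Ace and Nos2 formed a middle group at 276 ± 155, 254 ± 66.6, 191 ± 44.1 and 170 ± 54.9, in which each gene was above the next in 4, 6 and 5 of 8 libraries. Their order was not the same in both groups. The mean of Nos2 per kb was 209.5 beside 197 for Ace after anti-CD40, and 130 beside 185 after isotype. That of Edn1 was 243 beside 270.1 for Nos3 after anti-CD40, and 308 beside 238 after isotype. Ptgis at 66.7 ± 17.5, Ptgs1 at 48.5 ± 14.9 and Gch1 at 14.6 ± 1.83 were lower, and each was below its upper neighbor in all 8 libraries.

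Spread between the libraries was larger in the isotype group, which holds the 3 shallowest libraries, with 1 read worth up to 2.44 normalized reads. The highest isotype library was further from the lowest than among the anti-CD40 libraries for 8 of the 10 genes and for 71.3% of all genes tested. The exceptions among the 10 were Ace and Ptgs1. The median gene tested spanned 1.61-fold over the isotype libraries and 1.39-fold over the anti-CD40 libraries. The part of depth in this difference was not tested.

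**Figure D4:**
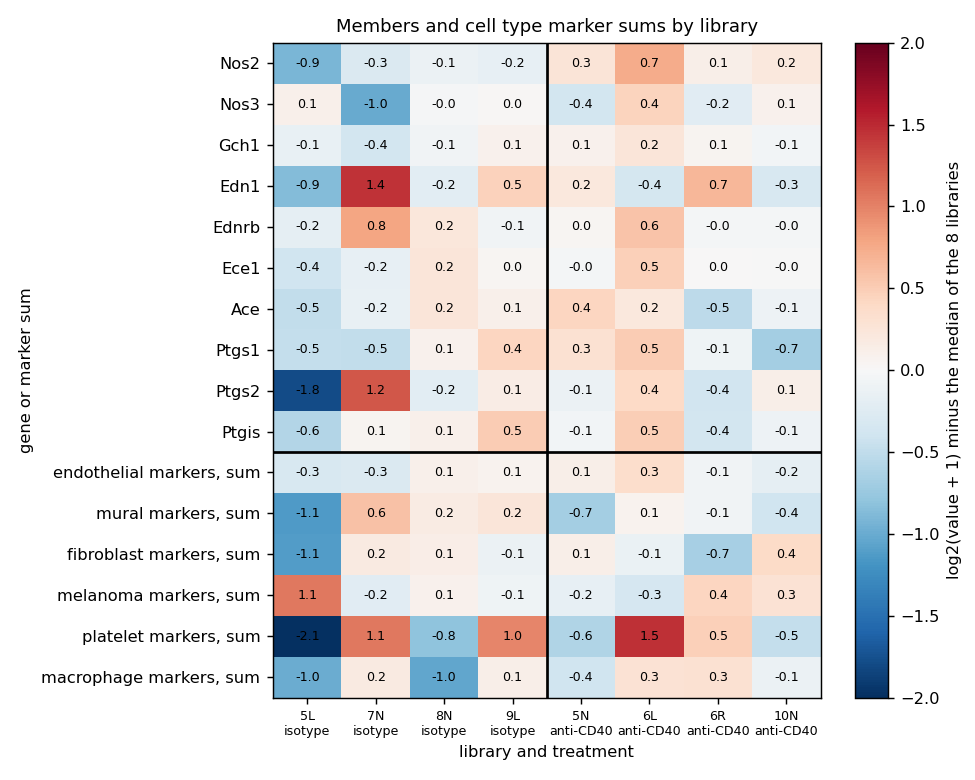
Log2(value + 1) of each gene and of 6 cell type marker sums, minus the median of the 8 libraries (color scale and printed numbers), with isotype libraries on the left and anti-CD40 libraries on the right. The isotype libraries 5L and 7N differ most from the rest, in opposite directions for Edn1 and Ptgs2 and for the mural markers.

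Some of the variation between tumors went with the marker sums. Nos2, whose groups did not overlap, was left out, and the other 9 genes were correlated with 4 sums, those of endothelial, mural, fibroblast and melanoma markers, over 8 libraries, giving 36 relations. Ptgs1 was higher where the endothelial sum was higher (Pearson r = 0.91, permutation p = 0.0027, adjusted p = 0.0487, and Spearman rho = 0.83, permutation p = 0.0154, adjusted p = 0.185). Without 6L and 10N, the libraries farthest from the median, r was 0.95. Ece1 did likewise (r = 0.89, permutation p = 0.0027, adjusted p = 0.0487, and rho = 0.76, permutation p = 0.0368, adjusted p = 0.206), with r = 0.69 without 6L and 5L. For Gch1 the relation with the endothelial sum missed the threshold after adjustment (r = 0.84, permutation p = 0.00856, adjusted p = 0.0616, and rho = 0.83, permutation p = 0.0154, adjusted p = 0.185), and r was 0.69 without 6L and 7N. Ptgs2 was lower where melanoma markers were higher (r = -0.87, permutation p = 0.00618, adjusted p = 0.0556, and rho = -0.86, permutation p = 0.0107, adjusted p = 0.185), and r was -0.66 without 5L and 7N. Ptgis was likewise lower there (r = -0.84, permutation p = 0.00546, adjusted p = 0.0556, and rho = -0.74, permutation p = 0.0458, adjusted p = 0.206), with r = -0.81 without 5L and 9L. Neither relation held after adjustment. The relation of Ptgs2 with the mural sum (r = 0.83, permutation p = 0.0105, adjusted p = 0.0628, and rho = 0.69, permutation p = 0.0694, adjusted p = 0.278) rested on 5L and 7N, since r was 0.18 without them. Genes and sums of a library share its normalization and its mix of cells.

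Among the 9 genes themselves, 36 pairs were compared and none held after adjustment. Nos3 and Edn1 had the strongest relation, and it was inverse (r = -0.83, permutation p = 0.0136, adjusted p = 0.246, and rho = -0.86, permutation p = 0.0107, adjusted p = 0.386). Without 6L and 7N, r was -0.61. The ratio of Edn1 to Nos3 per kb ran from 0.43 in 5L to 4.58 in 7N, with group means of 0.984 ± 0.508 after anti-CD40 and 1.72 ± 1.93 after isotype (exact permutation p = 0.714). Edn1 and Ptgs2 were both lowest in 5L and highest in 7N (r = 0.71, permutation p = 0.0528, adjusted p = 0.247, and rho = 0.33, permutation p = 0.428, adjusted p = 0.856), and r was -0.56 without those libraries.

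The sequences just before the annotated start are shown for the most variable pair, Edn1 and Ptgs2, and for the steadiest gene, Gch1. They are the 250 bases before the start in RefSeq on GRCm38.p6, which gave a window for 7 of the 10 genes. Capitals mark matches, on either strand, to 8 motifs. The TATA box was searched as TATAAA, and the AP-1 motif as TGANTCA. The cyclic AMP element was searched as TGACGTCA, and the core of the hypoxia element as ACGTG. The GATA factor motif was searched as GATAA. The STAT motif, called GAS, was searched as TTCNNNGAA, and the IRF motif as GAAANNGAA. NF-kB was searched as a pattern of 10 bases that opens with GGG and a purine and ends with pyrimidines and CC. Edn1 lies at chr13:42301226-42301475 (plus strand), Ptgs2 at chr1:150099781-150100030 (plus strand) and Gch1 at chr14:47189414-47189663 (minus strand).
Edn1: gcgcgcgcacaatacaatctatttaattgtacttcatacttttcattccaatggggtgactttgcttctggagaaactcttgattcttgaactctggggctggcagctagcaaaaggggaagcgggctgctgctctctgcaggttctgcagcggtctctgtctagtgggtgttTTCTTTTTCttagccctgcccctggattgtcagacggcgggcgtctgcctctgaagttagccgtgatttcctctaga
Ptgs2: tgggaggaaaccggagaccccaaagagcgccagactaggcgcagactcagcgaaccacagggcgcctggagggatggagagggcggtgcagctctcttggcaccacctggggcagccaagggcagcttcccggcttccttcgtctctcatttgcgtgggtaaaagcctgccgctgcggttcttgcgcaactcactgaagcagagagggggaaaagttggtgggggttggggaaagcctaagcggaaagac
Gch1: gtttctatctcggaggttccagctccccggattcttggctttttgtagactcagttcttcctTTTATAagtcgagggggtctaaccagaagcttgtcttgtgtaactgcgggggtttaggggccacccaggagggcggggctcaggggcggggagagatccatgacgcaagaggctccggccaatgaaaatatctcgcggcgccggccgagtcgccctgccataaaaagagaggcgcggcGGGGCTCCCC
The capitals in Edn1 are an IRF match 77 bases before the start, a motif held by 7.13% of the 32851 mouse windows of this kind. Gch1 held an NF-kB match 10 bases before the start, as 7.25% of windows do, and a TATA box match 188 bases before it, as 12.4% do. The 250 bases of the Ptgs2 window held none of the 8 motifs, and sequence outside them, such as that after the annotated start, was not searched. Over the other windows, Ednrb had an NF-kB match and Ace a TATA box match 31 bases before the start. Ece1 had a hypoxia element core, which 16.6% of all windows hold, and an IRF match, in separate windows of the 4 searched for it. No window of the 7 genes had a match to the GATA factor motif (22.6% of all windows), GAS (7.02%), AP-1 (6.75%) or the cyclic AMP element (1.55%).

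By GENCODE M21 on mm10, Nos2 spans chr11:78920787-78960254 and Nos3 chr5:24364810-24384474, both on the plus strand. None of the 50-base stretches of the Nos2 and Nos3 transcripts occurred in transcripts of another gene, and the largest share over the 10 genes was 0.258%, for Ednrb.

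The other genes of these pathways did not move with treatment at the threshold. The lists hold 108 genes, all of them in the table (Gucy1a3 and Gucy1b3 under these older symbols), and 74 genes other than the 10 were tested. None of the 74 was higher or lower at the threshold in limma, and none had an unadjusted p under 0.05, while edgeR and DESeq2 each called 1 of them, Adm2. Their log2 fold change was above 0 in 43 of 74, with a median of 0.038. Adm2, the peptide intermedin, had the smallest limma p of the 74, at 0.0704. It did not pass the threshold, with 11.9 ± 4.59 normalized reads after anti-CD40 and 26.4 ± 14.8 after isotype (SD, n = 4 each), and only 282 reads in all.

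Of 21 other genes of nitric oxide synthesis, 11 had a log2 fold change above 0, with a median of 0.02. Cav1, the caveolin that binds endothelial nitric oxide synthase, had 8239 ± 1366 normalized reads after anti-CD40 and 7736 ± 1458 after isotype (SD, n = 4 each). Hsp90ab1, a chaperone of the synthases, had 18143 ± 1587 and 18306 ± 2383. In the response list, with 4 of 10 genes above 0, Pde2a, a phosphodiesterase, was at 2055 ± 346 and 2087 ± 418, and Vasp, a substrate of the cGMP-dependent kinase, at 1434 ± 168 and 1383 ± 97.5. These 4 genes had limma p of at least 0.604.

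The endothelin list held few other measured genes. Edn2 had no read in any library and Edn3 had 1 read in all. Ednra, the A receptor of mural cells, was at 198 normalized reads in 5L and 852 in 7N, the ends of its range, with means of 452 ± 135 after anti-CD40 and 524 ± 267 after isotype (SD, n = 4 each, limma p = 0.828, exact permutation p = 0.743). Ece2, a related converting enzyme, was at 136 ± 18.9 and 137 ± 32.3 (limma p = 0.977, exact permutation p = 1). In the angiotensin and kinin list 7 of 9 other genes were above 0, with a median of 0.10 and no call. Apart from Ace, its most abundant genes were Lnpep, an aminopeptidase, at 750 ± 59.1 and 788 ± 259, and Prcp, a carboxypeptidase, at 848 ± 187 and 778 ± 173.

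Among 10 other genes of prostanoid synthesis, 7 were above 0, with a median of 0.09. Ptgds, a prostaglandin D synthase, was at 935 ± 236 normalized reads after anti-CD40 and 951 ± 394 after isotype, and Ptges3, a co-chaperone also known as a prostaglandin E synthase, at 1179 ± 97.9 and 1251 ± 116 (SD, n = 4 each). Tbxas1, the thromboxane synthase, had 118 reads in all. Receptors and clearance genes were above 0 in 7 of 10, with a median of 0.12. Slco2a1, a prostaglandin transporter, was at 871 ± 233 and 822 ± 164, and Ptgfrn, a partner protein of the prostaglandin F receptor, at 754 ± 129 and 698 ± 221. Ptgdr and Ptgdr2 had no read. Of 11 other vasoactive peptide genes 5 were above 0, among them Adm, adrenomedullin, at 877 ± 74.0 and 840 ± 346, and its receptor Calcrl at 1147 ± 289 and 1088 ± 250.

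**Figure D5:**
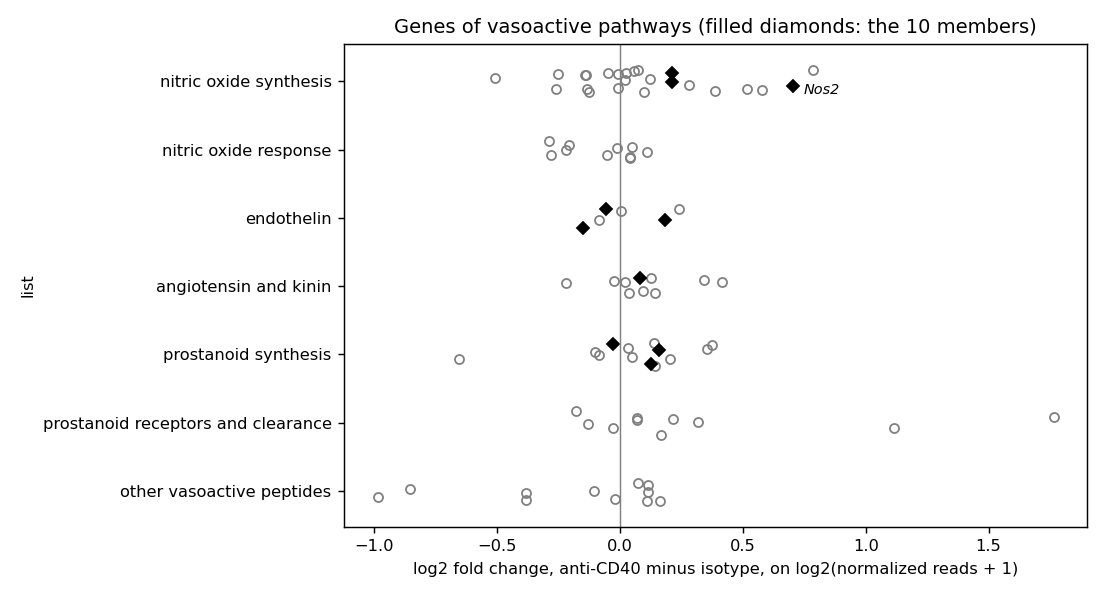
Log2 fold change (horizontal axis, anti-CD40 minus isotype, on log2(normalized reads + 1)) of each gene tested in 7 vasoactive pathway lists, with the 10 genes as filled diamonds and the other 74 as open circles. Nos2 is the one gene past the threshold. The circle farthest to the right is Ptger2, named here after its values were seen, which had 140 reads in all.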

How the data were processed

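RNA of sorted tumor endothelial cells was sequenced as 1 library per tumor, 4 per treatment. The authors deposited 1 signal value per gene and library, gene read counts divided by DESeq2 size factors and called normalized reads here. The submitters' processing notes name CASAVA 1.8, Bowtie2 2.2.1, Partek 6.6 and mm10, and the libraries were made from 10 ng of RNA with a kit that does not keep strand. Steps between low values gave the worth of 1 read, 0.118 to 2.44 normalized reads, and 99.9% of values were whole reads within 0.1 read. Correction for harvest day and flooring at 1, named in the methods, were not visible in the values.

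The values were tested as log2(value + 1) by limma 3.58.1 in R 4.3.3, with a single treatment term, trended moderation and Benjamini-Hochberg adjustment over 12969 genes (mean of either group above 10). Means, SDs and ratios are on the unlogged scale. Single values and ratios were compared by two-sided exact permutation tests, and correlations by permutation tests over all orders. The labels name 1 mouse per library, so replicates are tumors. Exon lengths and positions came from GENCODE M21. Counting intervals are exact Poisson intervals, and PCR reads without molecular identifiers are not independent molecules.

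The 10 genes and all lists were chosen with earlier results of these data known. Named besides the 10 are, per list, each gene past the threshold and the 2 with the largest mean. Adm2, Ptger2 and the genes described only by their few reads were named after their values were seen. Alternatives were other pseudocounts (0.1 and 10), filters, normalizations and limma settings, edgeR 4.0.16 and DESeq2 1.42.0 on the recovered reads, and leaving out each library. Leaving out 5L and 7N together and scaling to endothelial markers were added after seeing the data. One gene of the lists is not reported here.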

Additional observations from a re-analysis of the deposited data

Results flagged for a closer look

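Each of the 10 genes was examined in both groups for a library far from the other 3, by Dixon's test at its 95% critical value for 4 libraries. Of the 20 groups examined, 3 were past it, where chance gives about 1 in 20. Over all genes tested, 1554 of 25938 such groups (5.99%) were past it. Nos3 in the isotype library 7N was at 550 normalized reads, far below the other isotype libraries, with a gap of 0.847 of the group's range. Ednrb in the anti-CD40 library 6L was at 4240 normalized reads, with a gap of 0.901 of the range. Ece1 in the same library was at 5022 normalized reads, with a gap of 0.921 of the range. Both of these 6L values lie above the other anti-CD40 libraries, and the endothelial marker sum was also highest in 6L, at 66638.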

How the results depend on the processing

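The Nos2 difference kept its direction under all 21 alternatives, with ratios of 1.41 to 1.71, unadjusted p of 0.000571 to 0.019 and adjusted p of 0.0988 to 1. Its call was lost, leaving 0 genes of the 10 higher, under 4 of them, because the ratio fell below 1.5: the log2 difference was 0.566 without 6L, 0.522 without 5L, 0.471 without 5L and 7N together and 0.541 when scaled to endothelial markers, which moved the median of all genes to -0.158. With library quality weights the log2 difference was also 0.471, and the call was kept there because the ratio of 1.62 is that of the unweighted means. With each library left out in turn it was 0.522 to 0.788, and 0 to 1 of the 10 genes were higher. No alternative called a gene of the 10 lower.

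The other 9 genes were called under none of the alternatives, but all except Gch1 changed sign in some. With library quality weights the log2 difference was 0.0955 for Edn1, -0.0399 for Ece1, -0.25 for Ace and -0.186 for Ptgs1. Without 5L and 7N it was -0.0132 for Nos3, 0.0519 for Ednrb, -0.0276 for Ece1, -0.168 for Ace and -0.242 for Ptgs1. Scaled to endothelial markers it was -0.082 for Ace, -0.0361 for Ptgs1 and -0.00429 for Ptgs2. On recovered reads Ptgs2 was at -0.162 by edgeR and -0.168 by DESeq2. With 1 library left out the ranges were -0.0448 to 0.329 for Nos3, 0.132 to 0.278 for Gch1, -0.507 to 0.264 for Edn1, -0.205 to 0.139 for Ednrb, 0.0604 to 0.285 for Ece1, -0.0612 to 0.255 for Ace, -0.0412 to 0.355 for Ptgs1, -0.387 to 0.623 for Ptgs2 and -0.229 to 0.135 for Ptgis. The cause was not tested.

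Over all genes, 331 were higher when every gene above 0 was tested, and 124 to 234 with 1 library left out. The 31 lower genes became 93 with every gene above 0, 13 with means above 50, 57 without the trend, 70 with quality weights, 47 by edgeR, 58 by DESeq2, 56 without 5L and 7N and 56 scaled to endothelial markers, and 27 to 123 with 1 library left out, the largest count without 5L. Of the 74 other pathway genes, 1 was called after quantile normalization, 3 with quality weights, 1 by edgeR, 1 by DESeq2, 3 without 5L and 7N, 1 scaled to endothelial markers and 0 to 5 with 1 library left out. No paired analysis was possible because the labels give no replicate numbers and the mouse names share a number between the groups only once (5N and 5L), with nothing to say what it marks.

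Depth limits the isotype libraries 5L, 7N and 8N most, while the isotype library 9L was deep, with 35583141 reads on genes. In 5L and 7N there were 34 and 30 reads of Gch1, 55 and 56 of Ptgs1, and 45 and 72 of Ptgis.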
